A study of Caenorhabditis elegans with 3 samples.

Results

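The genes asp-1 to asp-6 encode aspartyl proteases of Caenorhabditis elegans, and clusters of DCR-1 contact were examined on their mRNAs. A cluster was taken when its sense annotation named one of these genes and its class included coding transcript. The rule found 63 of the 9293 clusters in the 5 deposited lists, and these lists share clusters. The 6 genes were selected on their clusters and reads in these same lists, so the number of genes with a cluster is a description and was not tested.

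The data came from PAR-CLIP of whole young adult worms of a rescue strain that expresses FLAG-tagged DCR-1, the single Dicer of the worm. RNA labelled with 4-thiouridine was crosslinked to protein by UV light in the living animals, and a crosslinked base tends to be read as C in place of T. For 2 libraries, T1/V1 replicate 1 and T1/V1 replicate 2, the labels name RNases T1 and V1 and a custom 3' adapter. For T1 replicate 3 they name RNase T1 and the default adapter, while the design text has lysate treated with both enzymes. Effects of nuclease and adapter cannot be told apart, and no library without crosslinking or without the tag was used here. Each library has its own list of clusters. Reads pooled from the 3 libraries gave a consensus list, where 2 or more libraries contributed reads to each cluster, and a conservative list, where 2 or more contributed conversions. In the order just given, the 5 lists held 399, 377, 1304, 4705 and 2508 clusters. On exons of nuclear protein-coding genes, called coding exon clusters here, they held 117, 116, 797, 3361 and 1647 clusters with 524, 524, 4616, 23506 and 15795 reads. Consensus clusters lay on marker genes of several tissues, with 5 of 8 intestinal, 3 of 4 muscle and 1 of 4 hypodermal genes. They also lay on 4 of 4 germline and 2 of 4 neuronal genes, and on 10.5% of all nuclear protein-coding genes. The marker lists were chosen with earlier results of these data known, so nothing is read from these counts.

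Aspartyl proteases cut proteins with a pair of catalytic aspartates and work best at acid pH, as in the lysosome or the gut. In the worm, asp-1 is known as a gene of intestinal cells, and asp-3 and asp-4 encode cathepsin D-like enzymes that take part in necrotic death of neurons, downstream of calpains. The genes asp-5 and asp-6 lie close together on chromosome V and are separated in the RefSeq gene table by asp-12, another gene of the family. Dicer is best known for cutting double-stranded RNA and the hairpin precursors of miRNAs, and mRNAs such as these are not its classical substrates.

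All 6 genes had a cluster in the consensus list and all 6 in the conservative list. Across all 19971 nuclear protein-coding genes of the RefSeq table, 10.5% had a coding exon cluster in the consensus list and 6.18% in the conservative list. Of the 6 genes, 5 had a cluster in T1 replicate 3, all but asp-2, against 3.1% of all genes. Over the 3 libraries together the same 5 had one, against 3.63%, and without T1 replicate 3 it was 2. In T1/V1 replicate 2, asp-1 and asp-6 had one, against 0.501%, and in T1/V1 replicate 1 none did, against 0.526%. The member counts were fixed by how the genes were picked, so nothing is read from these differences. The median of consensus reads over the 6 genes was 44, against 5 over the 2105 genes with a consensus cluster and 0 over all genes.

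The plain count of reads on asp-1 in the consensus list was 319, in 4 clusters. The consensus list held 121 reads in 6 clusters on asp-6, 54 in 5 clusters on asp-3, 34 in 5 clusters on asp-5, 24 in 5 clusters on asp-2 and 5 in 1 cluster on asp-4. In T1 replicate 3 the reads were 197 on asp-1, 60 on asp-6, 14 on asp-3, 5 on asp-5 and 2 on asp-4. In T1/V1 replicate 2 they were 56 on asp-1 and 7 on asp-6. In T1 replicate 3 the same 2 genes had the most reads of the family, and in T1/V1 replicate 2 they were the only ones listed. By reads, asp-1 ranked first among all genes with coding exon clusters in T1/V1 replicate 2, after vit-6 in T1 replicate 3 and in place 4 of the consensus list, behind the yolk genes vit-6 and vit-2 and the elongation factor gene eft-3. The gene asp-6 ranked 17 in the consensus list.

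**Figure D1:**
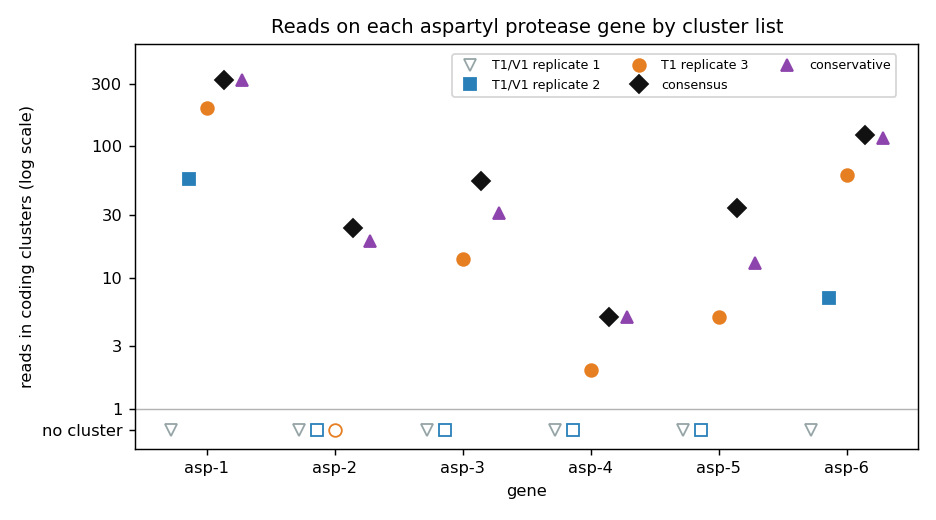
Reads in coding clusters of each gene (log scale) in the 3 library lists and the 2 pooled lists, with open symbols on the lowest line for genes without a cluster in that list. The gene asp-1 was highest in each list that held a cluster of the family, with 56, 197 and 319 reads in T1/V1 replicate 2, T1 replicate 3 and the consensus list, and T1/V1 replicate 1 had no cluster on any gene.

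Longer transcripts can collect more reads, and no annotation of the files' genome build was used, so gene length could not be taken into account. Per 100 bases lying in consensus clusters, asp-1 had 26.4 reads, asp-6 13.3, asp-2 12.1, asp-3 11.7, asp-4 9.80 and asp-5 9.69. On this scale asp-1 stood highest in the consensus list, and asp-2 came ahead of asp-3. The order differed between lists. The T1/V1 replicate 2 list had 13.5 reads per 100 covered bases on asp-6 and 9.09 on asp-1, whereas T1 replicate 3 had 10.2 on asp-6 and 16.9 on asp-1. For the conservative list the value was 26.4 on asp-1, 23.2 on asp-2, 16.1 on asp-3, 13.8 on asp-6, 10.2 on asp-5 and 9.80 on asp-4. This scale uses only the bases that were called and does not give the level of the mRNA. Input RNA was not analysed here, so contact with DCR-1 and mRNA abundance cannot be told apart.

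Relative to all coding exon reads of each list, the 6 genes took 12.02% in T1/V1 replicate 2 (exact 95% binomial interval 9.36% to 15.1%), 6.02% in T1 replicate 3 (5.35% to 6.75%) and 2.37% in the consensus list (2.18% to 2.57%). Intervals cover counting error only, since reads are not independent molecules. In T1/V1 replicate 1 they took 0%. The T1/V1 mean was therefore 6.01% ± 8.50 (SD, n = 2), beside 6.02% in the T1 library. As the SD of that pair exceeds its mean, the closeness of these values says nothing about agreement between the nucleases. With 2 libraries against 1, no test between the nucleases was made. The gene asp-1 alone took 10.7% in T1/V1 replicate 2, 4.27% in T1 replicate 3 and 1.36% in the consensus list.

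The empty T1/V1 replicate 1 list does not mean that this library had no reads there. Of the 26 consensus clusters on the 6 genes, 17 had reads from all 3 libraries, T1/V1 replicate 1 included, and 9 had reads from 2. These 17 comprised all 6 clusters of asp-6, 3 of 4 of asp-1, 3 of 5 each of asp-3 and asp-5 and 2 of 5 of asp-2. For all coding exon clusters of the consensus list, 1485 of 3361 (44.2%) had reads from all 3 libraries. Conversions from all 3 libraries backed 7 of the 26 clusters, of which 3 lay on asp-1, 3 on asp-6 and 1 on asp-3, against 318 of 3361 (9.46%) for all coding exon clusters. Support rises with reads, and the 26 clusters had a median of 7.5 reads against 4 for all. Among consensus clusters of 10 to 49 reads, 3 of 8 on these genes and 34.7% of all had conversions from 3 libraries.

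Reads of the library lists did not add up to the pooled reads. Over the 3 library lists asp-1 held 253 reads, and the consensus list held 1.26 times as many. The corresponding ratio was 1.81 for asp-6, 3.86 for asp-3, 2.50 for asp-4 and 6.80 for asp-5, and it was 4.15 for all coding exon clusters together. On asp-2 no library list had a cluster, while the consensus list held 24 reads. The ratio was thus lowest for the 2 genes with the most reads.

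Clusters on asp-1, sequence name Y39B6A.20, followed one another with few gaps. All lie on the minus strand of chromosome V, in the authors' coordinates, for which the sources used here give no genome build. The files annotate each of them to exon 1 of the transcripts. The widest consensus cluster, 19049836 to 19050657, was 822 nt long and held 219 reads, 35 conversions at 19 positions and 133 edits of any kind. Directly downstream, the cluster at 19049522 to 19049834 held 91 reads and 11 conversions and crossed the stop codon into the 3' UTR and an annotated polyA site. A short cluster of 29 nt near the 5' end, 19050675 to 19050703, held 5 reads and 5 conversions. A cluster of 4 reads, annotated as 3' UTR and not as coding sequence, lay at 19049454 to 19049498. Together these 4 clusters covered 96.7% of the 1250 bases from the first to the last of them.

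Cover of asp-1 was also nearly unbroken in T1 replicate 3. It was broken by wider gaps in T1/V1 replicate 2 and was absent from the T1/V1 replicate 1 list. The T1 replicate 3 clusters were 19049837 to 19050657 with 60.4% of the gene's 197 reads and with 5 conversions, 19049522 to 19049834 with 76 reads and 6 conversions, and 19050675 to 19050703 with 2 reads and 2 conversions. They covered 98.4% of their span of 1182 bases. In T1/V1 replicate 2 the clusters were 19049695 to 19050121 with 40 reads and 4 conversions, 19050393 to 19050478 with 9 reads and 1 conversion, 19050215 to 19050271 with 4 reads and 2 conversions, and 19049646 to 19049691 with 3 reads and 1 conversion, over 73.9% of 833 bases. The longest coding exon cluster of the list lay on asp-1 in T1/V1 replicate 2 (427 nt), in T1 replicate 3 (821 nt) and in the consensus list (822 nt), and the next longest lay on eft-3 in each, with 408, 804 and 804 nt. The median coding exon cluster was 45, 51 and 49 nt long.

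**Figure D2:**
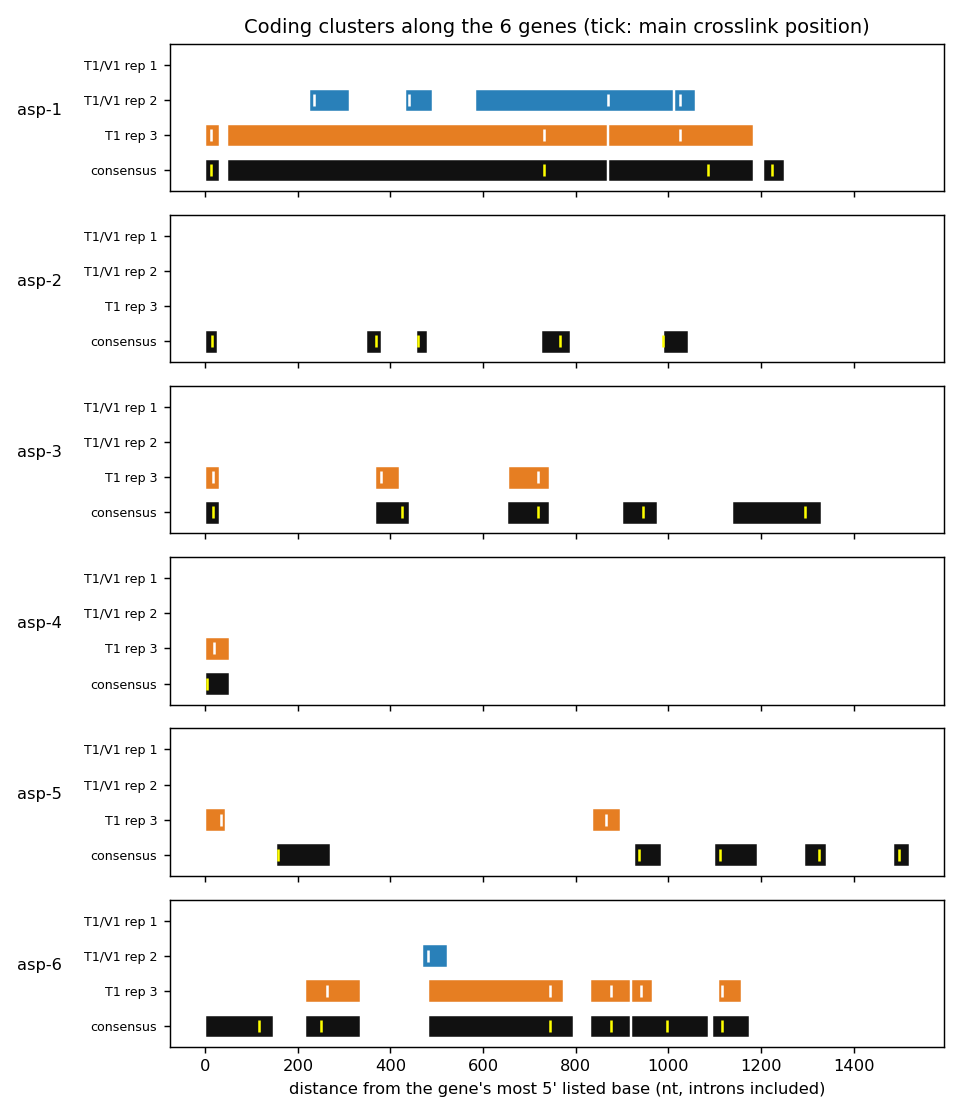
Coding clusters along each gene in transcript direction, in the 3 library lists and the consensus list. The horizontal axis is the distance in nt from the most 5' base listed for the gene, introns included, bars are clusters and ticks within them the main crosslink position given by the authors. Clusters covered 96.7% of the span on asp-1 and 77.6% on asp-6 in the consensus list, and stood apart from each other on asp-2, asp-3 and asp-5.

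Clusters on asp-6, sequence name F21F8.7 on the minus strand of chromosome V, lay on exons 1, 2 and 3, with 4 of the 6 consensus clusters on exon 3. The strongest, 8267981 to 8268293 on exon 3, was 313 nt long and held 53 reads and 12 conversions at 4 positions. Clusters of 17 reads each lay at 8267689 to 8267854 on exon 3, with 4 conversions, and at 8268441 to 8268559 on exon 2, with 5 conversions. The exon 3 clusters of T1 replicate 3 were 8268003 to 8268292 with 38 reads and 4 conversions, 8267858 to 8267943 with 10 reads and 2 conversions, 8267810 to 8267854 with 3 reads and 1 conversion, and 8267619 to 8267666 with 2 reads and 1 conversion. An exon 2 cluster of 7 reads and 2 conversions had the same ends, 8268441 to 8268559, as in the consensus list. In T1/V1 replicate 2 a single cluster of 7 reads and 1 conversion lay at 8268254 to 8268305 on exon 3. The 6 consensus clusters covered 77.6% of their span of 1175 bases, the highest value after asp-1 among the 5 genes with several clusters. Spans include introns, which separate clusters of asp-2, asp-3, asp-5 and asp-6 but not those of asp-1, so this order partly reflects gene structure.

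On asp-3, sequence name H22K11.1 on the plus strand of chromosome X, clusters lay on exons 1, 2 and 4 and none was annotated to exon 3. The consensus cluster with the most reads, 6792280 to 6792472 on exon 4, held 18 reads with 1 conversion. Clusters of 14 reads each lay at 6791510 to 6791582 on exon 2, with 11 conversions, and at 6791795 to 6791885 on exon 4, with 9 conversions. The exon 2 cluster ran over the 5' splice site into intron 2, and a further one of 3 reads at 6791143 to 6791171 held the start codon. Clusters of T1 replicate 3 lay at 6791796 to 6791885 with 7 reads, at 6791510 to 6791560 with 5 reads and at 6791143 to 6791171 with 2 reads, each with 1 conversion. The exon 2 cluster of that library ended short of the splice site.

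On asp-5, sequence name F21F8.3 on the plus strand of chromosome V, the 5 consensus clusters lay on exons 1, 3 and 4. The strongest, 8272565 to 8272681, held 11 reads with 1 conversion and ran from exon 1 over the 5' splice site into intron 1. The next, 8273510 to 8273603 on exon 3, held 7 reads and 4 conversions. Clusters of 6 reads each lay at 8273338 to 8273395 on exon 3, with 1 conversion, and at 8273898 to 8273931 on exon 4, with 4 conversions. The T1 replicate 3 list had clusters on asp-5 at 8272412 to 8272454 with 3 reads and at 8273247 to 8273307 with 2 reads, each with 1 conversion. Neither of these overlapped a consensus cluster, so the sites listed on asp-5 differed between the T1 library and the pool. Of the 26 consensus clusters on the 6 genes, 2 reached into an intron, the ones on asp-3 and asp-5, against 11.9% of all coding exon clusters.

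On asp-2, sequence name T18H9.2 on the plus strand of chromosome V, each of the 5 consensus clusters was short, from 23 to 63 nt, and 4 lay on exon 8 and 1 on exon 7 of transcript T18H9.2a. The clusters at 9203643 to 9203675 and 9203752 to 9203774 held 8 reads each, with 10 and 5 conversions. A cluster of 3 reads on exon 7, 9203296 to 9203321, held 4 conversions, and another of 3 reads, 9204020 to 9204082, held 1. On asp-4, sequence name R12H7.2 on the minus strand of chromosome X, the only cluster lay on exon 6 at 13219066 to 13219116, with 5 reads and 4 conversions in the consensus list and 2 reads and 1 conversion in T1 replicate 3. The ends of this cluster were the same in both lists.

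T-to-C conversions were sparse relative to reads on asp-1 and frequent on asp-2. In the consensus list there were 17.2 conversions per 100 reads on asp-1, 24.8 on asp-6, 32.4 on asp-5, 44.4 on asp-3, 80 on asp-4 and 87.5 on asp-2. Over all coding exon clusters there were 58.4. In T1 replicate 3 the values were 6.60 on asp-1 and 16.7 on asp-6, against 34.6 over all coding exon clusters, and in T1/V1 replicate 2 both genes had 14.3, against 34.2. Every listed coding exon cluster holds at least 1 conversion, which raises this value in clusters of few reads. No consensus cluster on asp-2 had more than 8 reads, and all consensus coding exon clusters of 2 to 9 reads together had 70.1.

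Measured against other edits, T-to-C conversions made up 30.2 of 100 edits on asp-1 in the consensus list (exact 95% binomial interval 23.6 to 37.5) and 42.3 on asp-6 (30.6 to 54.6). The value was 50 on asp-3, asp-4 and asp-5 and 56.8 on asp-2 (39.5 to 72.9), and 49.8 over all coding exon clusters. The interval of asp-1 lay wholly below that of asp-2 and below the value of all coding exon clusters. All consensus coding exon clusters of 2 to 9 reads stood at 54.6, within the interval of asp-2, whose clusters are all of that class. The T1 replicate 3 value on asp-1 was 14.6 (8.01 to 23.7), against 40.2 over all coding exon clusters. In T1/V1 replicate 2 it was 25.8 (11.9 to 44.6), against 39.9, which lies within the interval. On asp-3, asp-4 and asp-5 the counts of edits were 48, 8 and 22, and their intervals span at least from 35.2 to 64.8.

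**Figure D3:**
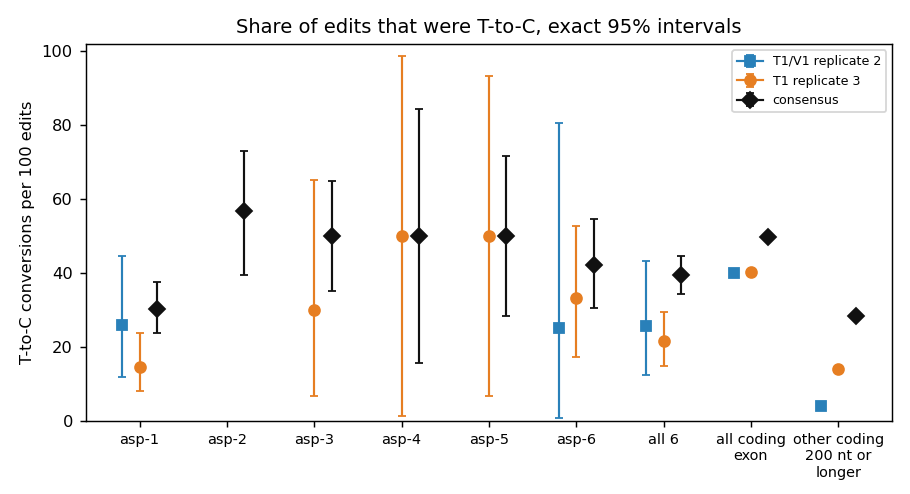
T-to-C conversions per 100 edits of each gene in 2 library lists and the consensus list, with exact 95% binomial intervals, beside all coding exon clusters and the other coding exon clusters of 200 nt or longer, which are drawn without intervals. In the consensus list asp-1 stood at 30.2 and asp-2 at 56.8, and all coding exon clusters stood at 49.8 while the other long ones stood at 28.2.

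Low conversion went with long clusters across coding exons and not with asp-1 alone. Outside the family, 67 consensus coding exon clusters of 200 nt or longer had a median of 12.5 conversions per 100 reads, against 60 over all. In the consensus list 3 clusters of the family had at least 50 reads, 2 on asp-1 and 1 on asp-6, and all 3 were longer than 200 nt. They had 12.1, 15.98 and 22.6 conversions per 100 reads. The other 21 coding exon clusters of at least 50 reads and 200 nt had a median of 10.2, with a range from 3.25 to 36. Per 100 edits, the 3 clusters had 29.6 conversions and the other 21 had 25.6. In T1 replicate 3 the 2 such clusters, both on asp-1, had 4.20 and 7.89 conversions per 100 reads, against 1.69 to 4.43 over 6 others. In both lists each of these clusters of the family lay above the median of the others of such reads and length, which was 2.55 in T1 replicate 3. The consensus list includes T1 replicate 3 reads, so the 2 lists are not separate observations. Over all 40 consensus coding exon clusters of at least 50 reads, of any length, the median was 15.9, above the 12.1 of 1 asp-1 cluster. These 40 ranged from 1.92 to 235.2, with 45.2 conversions per 100 reads when summed. In the range of 2 to 9 reads, 15 clusters of the family had a median of 62.5 conversions per 100 reads and all 2857 had 66.7.

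**Figure D4:**
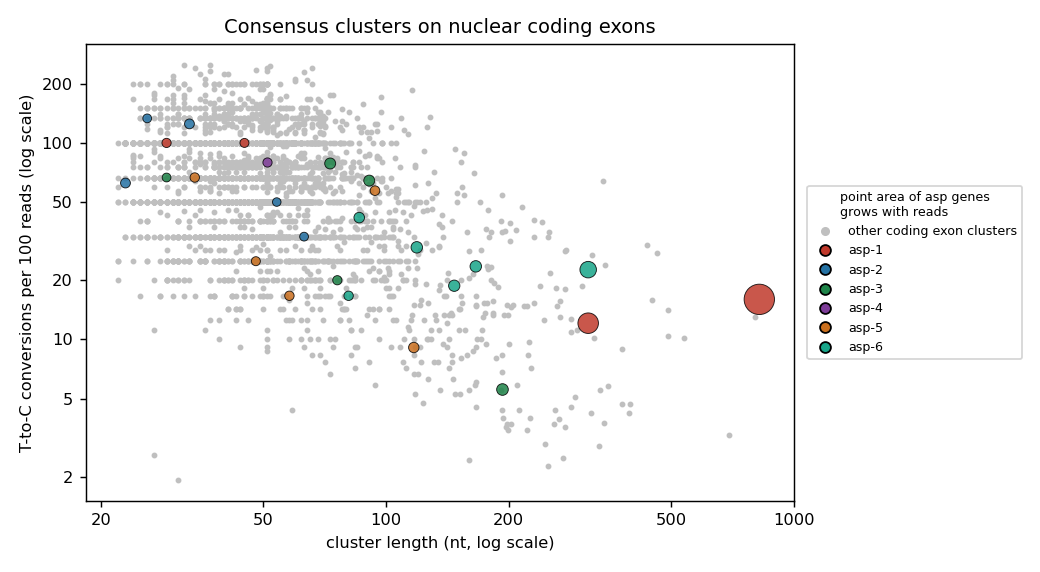
Each point is a consensus cluster on nuclear coding exons, with its length in nt and its T-to-C conversions per 100 reads, both on log scales. Clusters of the 6 genes are coloured, with an area that grows with reads. The 822 nt cluster of asp-1 lies at the far right at 15.98 conversions per 100 reads, and the short clusters of asp-2 lie between 33.3 and 133.3.

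Clusters on these genes recurred between T1/V1 replicate 2 and T1 replicate 3, and none recurred in T1/V1 replicate 1. All 5 clusters of T1/V1 replicate 2 on these genes shared at least 1 base with a T1 replicate 3 cluster, against 33 of 116 (28.4%, interval 20.5% to 37.6%) for all coding exon clusters. Of these 5, 4 had 2 to 9 reads, a class in which 24.8% of all coding exon clusters recurred. In the class of 10 to 49 reads, which held the other, 6 of 7 (85.7%) recurred. The genes were picked on their clusters and reads in these same lists, so these counts are a description and were not tested. The 4 clusters on asp-1, one of them with 40 reads, lay in T1 replicate 3 clusters that together ran on with hardly a gap, so they are not separate observations. In the other direction 3 of 14 T1 replicate 3 clusters recurred in T1/V1 replicate 2, against 3.89% of all. These 3 were the widest and the 76-read clusters of asp-1 and the 38-read cluster of asp-6, and none of the 10 clusters with 2 to 9 reads recurred. Among all T1 replicate 3 coding exon clusters, 1.29% with 2 to 9 reads and 70% with at least 50 reads recurred in T1/V1 replicate 2. Of the 14 T1 replicate 3 clusters, 0 recurred in T1/V1 replicate 1, although 2 had at least 50 reads, against 3.64% of all and 30% of all with at least 50 reads. A main crosslink position was shared by T1/V1 replicate 2 and T1 replicate 3 at 1 site, base 19049679 of asp-1. The consensus list pools the reads of T1 replicate 3 itself, so overlap with it is not recurrence in a separate library. There, 12 of the 14 T1 replicate 3 clusters overlapped a consensus cluster, against 66.1% of all coding exon clusters. In the class of 2 to 9 reads 8 of 10 did, against 61.8% of all, and 95.6% of all with 10 to 49 reads did.

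Related genes were counted from lists of lysosomal and digestive functions. Of 11 other protein-coding asp genes, asp-14 alone had a consensus cluster, with 19 reads in 3 clusters and none in a library list. Consensus clusters lay on 7 of 11 cysteine cathepsin genes, whose products are the other main proteases of worm lysosomes and gut. They were led by cpr-9 with 32 reads, cpz-1 with 17 and cpr-1 with 13. Subunit genes of the vacuolar proton pump, which acidifies these compartments, had clusters at 13 of 21, led by vha-15 with 65 reads, vha-13 with 33 and vha-2 with 24. Of 8 genes of lysosome membrane and traffic, lmp-1 with 5 reads and rab-7 with 2 had one. Of 12 lysozyme genes 5 had one, led by lys-1 with 22, lys-7 with 12 and lys-2, lys-4 and lys-8 with 3 each, and of 10 calpain genes, clp-4 with 7 and clp-7 with 5 had one. The background was 10.5% of all genes. Median consensus reads over each list were 0, 2, 3, 0, 0 and 0 in the order given, against 44 over asp-1 to asp-6, which were picked for having clusters.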

How the data were processed

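The authors deposited clusters of overlapping PAR-CLIP reads. Per the submitters' processing notes Bowtie2 2.1.0 was used. Per the file attributes the estimated false discovery rate was 5%. The sources used here give neither genome build nor annotation release. The deposited values were counts per cluster, of reads, edits and T-to-C conversions, none of them normalised. The authors' entropy score, also deposited per cluster, was not used. Clusters of the 2 pooled lists carry no SD.

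Members and gene lists were chosen with earlier results of these data known. All 6 members were named, with their 3 strongest consensus clusters and every library cluster, and the 3 strongest genes of each list. Of 2367 gene names on nuclear coding exon clusters, 2292 matched the RefSeq table (assembly WBcel235), which was used for names and neighbours. Overlap meant at least 1 shared base on the same strand. No test was made, since labels give 2 libraries against 1 and nothing says that they are separate cultures. Overlap code was tested on simulated data. Alternatives covered read minimums, gene assignment, overlap, denominators and left-out replicates. Analyses used Python 3.11.15, SciPy 1.17.1 and matplotlib 3.10.9.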

Additional observations from a re-analysis of the deposited data

How the results depend on the processing

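Of 76 alternative values, 18 moved by over 1.5 times for a count or beyond the reported interval for a share. Counting clusters of any class changed no value, and keeping only clusters that name a single gene changed no gene count or read count. The 6 genes had no clusters that these settings would add or remove, so those unmoved values say nothing about stability. With clusters of at least 5 reads, 3 genes had a cluster in T1 replicate 3 and 3 in any library, the shares of coding reads were 18.1%, 8.24% and 3.02% in T1/V1 replicate 2, T1 replicate 3 and the consensus list, and 3 clusters of T1/V1 replicate 2 recurred in T1 replicate 3. As a share of the reads of all clusters these 3 lists gave 0.582%, 1.11% and 0.605%, and as a share of coding exon clusters 4.31%, 1.76% and 0.774%. With mitochondrial coding clusters counted, an alternative added after seeing the data, the share was 7.33% in T1/V1 replicate 2 and 2.13% in the consensus list. In the conservative list it was 3.18%. Without one library, 2 to 5 genes had a cluster in any library, with 2 without T1 replicate 3, and 0 to 8 clusters recurred, with 0 recurring without T1/V1 replicate 2 or without T1 replicate 3. The T1/V1 share ran from 0% without replicate 2 to 12.02% without replicate 1, and as its SD exceeds its mean, its alternatives say nothing about stability. Reads per coding length were not run, since no protein or transcript of the files' build was used. No paired analysis was possible because the T1/V1 and T1 libraries share no replicate number. Of 19 library clusters on the 6 genes, 10 had at least 5 reads.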

Other observations

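Several copies of the family lie side by side on chromosome V in the RefSeq gene table. The gene asp-12, between asp-6 and asp-5, had no consensus coding exon cluster, and neither did asp-15 and asp-16, the asp genes nearest to asp-1. All reads in the 63 clusters of asp-1 to asp-6 are counted as unique in the files, as are those of all 9293 clusters, and the sources used here do not say how reads shared by near-identical copies were treated.

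The names asp-1 to asp-6 did not appear among the opposite-strand annotations of any of the 5 lists. Where these annotations named a transcript, on clusters of asp-2 and asp-4, they gave its sequence name, T18H9.5a or R12H7.4. A search by gene name could therefore miss clusters opposite asp-1 to asp-6, so their absence was not shown. In the consensus list 4 of the 26 clusters, on asp-2 and asp-4, lay opposite another annotated transcript, against 565 of 3361 coding exon clusters.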
